A study of Homo sapiens and Mus musculus with 12 samples.

Results

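The 9 tuft cell genes Avil, Gnat3, Matk, Trpm5, Dclk1, Pou2f3, Il25, Gfi1b and Alox5ap were examined in mouse colon, as 9 of the 17383 genes in the deposited mouse table, chosen by symbol. RNA came from colon tissue of 12-week-old mice, with 3 libraries from Zfp280c knock-out and 3 from wild-type C57BL/6J animals. The labels do not give the part of the colon, the sex, or how the knock-out allele was made. Values are FPKM, fragments scaled to transcript length and library size, so levels can be compared between genes as well as between libraries.

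Tuft cells are rare chemosensory cells of the gut epithelium. They sense luminal compounds through a cascade shared with taste cells, in which a G protein leads to calcium release and opening of the cation channel TRPM5. They are known for secreting IL-25 and leukotrienes, which act on innate lymphoid cells during worm infection. Their formation in mice requires the transcription factor POU2F3.

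Wild-type replicates 1 and 3 carried a distal HOX pattern, and wild-type replicate 2 did not: Hoxb13, a gene of the distal gut, had 2.23, 12.90 and 18.89 FPKM in knock-out colon, against 336.32, 14.72 and 506.98 FPKM in wild-type colon. Hoxd13, also distal, reached 68.45 FPKM in wild-type replicate 3 and at most 0.96 FPKM in any other library. Zfp280c, the deleted gene, had 0.09, 0.09 and 0.22 FPKM in knock-out colon, against 2.48, 2.25 and 3.17 FPKM in wild-type colon. The epithelial marker Epcam had 983.62, 1060.72 and 1029.31 FPKM in knock-out colon, against 1017.41, 1046.52 and 917.25 FPKM in wild-type colon. In bulk tissue, fewer tuft cells and less tuft cell RNA per cell cannot be told apart.

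RNA of all 9 genes was found in all 6 libraries, at low levels. None of the 6 genes tested across the table passed between the genotypes, and in all 9 the groups overlapped. The clearest feature of the group was 1 library: wild-type replicate 3 had the lowest value in 8 of the 9 genes, and in 7 of the 9 it stood under 50% of the median of the other 5 libraries. Among the 6678 genes of the table with a mean of at least 0.1 and under 5 FPKM, these shares were 30.1% and 17.8%. Wild-type replicates 1 and 2 both lay within the range of the knock-outs in 6 of the 9 genes, against 26.5% of the same 6678 genes, and in 4 of the 6 with a mean of at least 1 FPKM, against 22.1% of all genes at that mean.

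The signalling cascade is represented by Trpm5 and Gnat3. Trpm5, the calcium-activated cation channel, had 3.94, 2.64 and 3.19 FPKM in knock-out colon, against 3.22, 3.32 and 0.95 FPKM in wild-type colon. Wild-type replicates 1 and 2 lay among the knock-outs, and wild-type replicate 3 lay alone below them. Gnat3, which encodes the taste G protein subunit gustducin, had 1.98, 2.14 and 1.96 FPKM in knock-out colon, against 2.01, 1.56 and 0.28 FPKM in wild-type colon. The 3 knock-outs were close together, and wild-type replicate 3 was at 14.1% of the median of the other 5 libraries, the lowest such share of the 9 genes.

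Avil and Dclk1 encode proteins of the cytoskeleton, and Matk a kinase. Avil, advillin, binds actin and belongs to the villin family, whose members bundle filaments in the microvilli. It had 3.85, 2.30 and 3.32 FPKM in knock-out colon, against 2.57, 2.40 and 1.01 FPKM in wild-type colon. Dclk1, a microtubule-associated kinase widely used to stain tuft cells, had 3.44, 2.40 and 2.85 FPKM in knock-out colon, against 2.80, 2.85 and 1.22 FPKM in wild-type colon. Matk, which phosphorylates the inhibitory tyrosine of Src family kinases, had 3.09, 2.42 and 3.02 FPKM in knock-out colon, against 2.47, 2.98 and 1.14 FPKM in wild-type colon. In all of these, the groups overlapped and wild-type replicate 3 was the lowest library, at 39.3% (Avil), 42.8% (Dclk1) and 38.3% (Matk) of the median of the others.

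The transcription factor genes were the lower part of the range. Pou2f3 had 1.17, 0.76 and 0.94 FPKM in knock-out colon, against 0.79, 0.89 and 0.40 FPKM in wild-type colon, again with wild-type replicate 3 lowest (44.9% of the median of the others). Gfi1b, a repressor that also acts in erythroid cells and megakaryocytes, had 0.25, 0.30 and 0.28 FPKM in knock-out colon, against 0.39, 0.25 and 0.06 FPKM in wild-type colon. The lowest and the highest Gfi1b values were both in wild-type libraries. Values are printed to 2 decimals, so those near the bottom of the Gfi1b range carry a rounding error that is large for their size.

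The secreted and lipid mediator genes did not follow the others. Il25, the cytokine gene, had 0.26, 0.11 and 0.41 FPKM in knock-out colon, against 0.16, 0.21 and 0.21 FPKM in wild-type colon. Its lowest value was in knock-out replicate 2, and wild-type replicate 3 was at 100% of the median of the others. Alox5ap, which presents arachidonic acid to 5-lipoxygenase for leukotriene synthesis, had 3.44, 3.17 and 3.39 FPKM in knock-out colon, against 5.71, 3.83 and 2.98 FPKM in wild-type colon. It was the only gene of the 9 with a lower mean in knock-out, 79.9% of wild-type, and its highest value was in wild-type replicate 1. Alox5ap is also made by macrophages and other myeloid cells. The 8 macrophage markers summed to 61.43, 59.33 and 90.93 FPKM in knock-out colon, against 166.7, 73.28 and 112.9 FPKM in wild-type colon. Lyz2 alone gave 121.24 FPKM of the sum in wild-type replicate 1. That library was highest as for Alox5ap, but wild-type replicate 3 stood above the knock-outs for this sum and lowest for Alox5ap. The part of macrophages in the Alox5ap values was not tested.

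**Figure D1:**
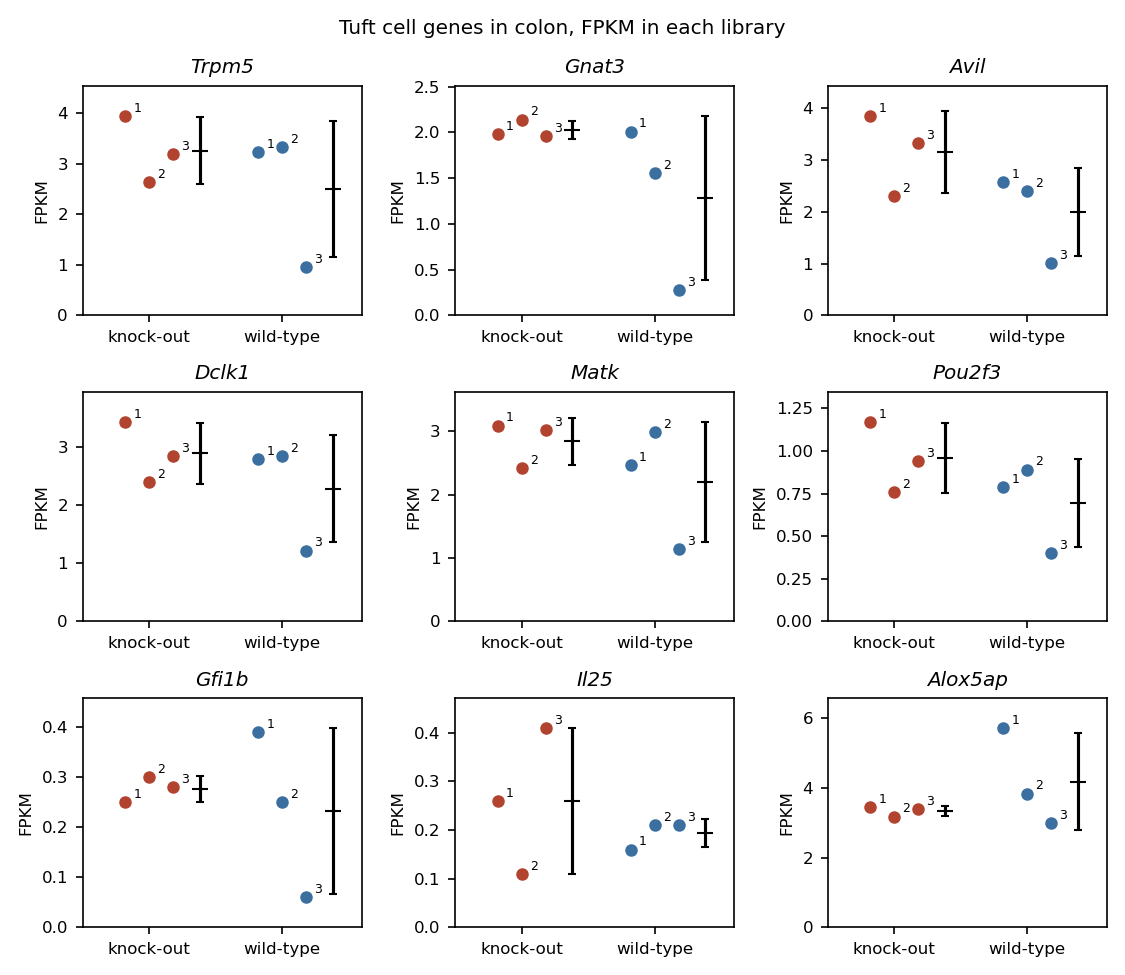
FPKM of the 9 tuft cell genes in each library, knock-out in red and wild-type in blue, with the replicate number beside each point and the mean ± SD of 3 libraries as a black bar at its right. Wild-type replicate 3 is the lowest point in every panel but Il25, while wild-type replicates 1 and 2 lie near the knock-outs in most panels.

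Ordered by mean FPKM over the 6 libraries, Alox5ap (3.75) came first, followed by Trpm5 (2.88), Dclk1 (2.59), Avil (2.58), Matk (2.52), Gnat3 (1.66), Pou2f3 (0.825), Gfi1b (0.255) and Il25 (0.227). Dclk1, Avil and Matk were not separated: Dclk1 exceeded Avil in 4 of 6 libraries, and Avil exceeded Matk in 3. Gfi1b exceeded Il25 in 3 of 6 libraries. Matk exceeded Gnat3, and Pou2f3 exceeded Gfi1b, in 6 of 6. Gnat3 exceeded Pou2f3 in 5, the exception being wild-type replicate 3, where Gnat3 was at 0.28 and Pou2f3 at 0.40 FPKM.

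Avil, Dclk1, Matk and Trpm5 kept close proportions to each other, and Gnat3 and Alox5ap did not keep them with the other genes. Matk over Dclk1 had the narrowest ratio of the 15 pairs among the 6 genes with a mean of at least 1 FPKM. It was 0.898, 1.01 and 1.06 in knock-out colon, against 0.882, 1.05 and 0.934 in wild-type colon. Over the same libraries Dclk1 itself ranged 2.82-fold. Avil over Dclk1 stayed between 0.828 and 1.16, and Trpm5 over Dclk1 between 0.779 and 1.16. Gnat3 over Dclk1 ran from 0.23 to 0.892, a 3.89-fold span and wider than that of Dclk1 itself, with its lowest value in wild-type replicate 3. Gnat3 over Alox5ap had the widest ratio, 0.576, 0.675 and 0.578 in knock-out colon, against 0.352, 0.407 and 0.094 in wild-type colon. These ratios describe 6 libraries and carry no test.

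The comparison of knock-out with wild-type colon asked whether deletion of Zfp280c goes with a change in tuft cell RNA. Group means were higher in knock-out for 8 of the 9 genes, but the groups overlapped in all 9. Over all genes tested, 16.9% had groups that did not overlap, and 13.0% of genes with a mean of at least 0.1 and under 5 FPKM. In limma, fitted to log2(FPKM + 1) of all 11366 genes with a mean of at least 1 FPKM, 0 of the 6 tuft genes that reached this mean passed a Benjamini-Hochberg adjusted p under 0.05. No other gene passed either (0% of all genes tested). At an unadjusted p under 0.05 there were 0 of the 6, against 12.5% of all genes (1420). Pou2f3, Gfi1b and Il25 lay below the minimum and were compared by the exact test alone.

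The largest differences were those of Avil and Gnat3. Avil averaged 3.16 ± 0.788 FPKM in knock-out and 1.99 ± 0.856 FPKM in wild-type colon (SD, n = 3 each), which gave a log2 fold change of 0.50 ± 0.26 (SE; adjusted p = 0.431, limma). Gnat3 averaged 2.03 ± 0.0987 and 1.28 ± 0.898 FPKM in knock-out and wild-type colon, or 0.50 ± 0.31 as log2 fold change (limma adjusted p = 0.491). Both means were 158% of wild-type, and the 95% intervals of the log2 fold changes ran from -0.12 to 1.13 (Avil) and from -0.25 to 1.24 (Gnat3), so differences of either sign, or more than 2-fold upward on this scale, lie inside them.

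Trpm5, Matk and Dclk1 had log2 fold changes of 0.36 ± 0.32, 0.31 ± 0.24 and 0.28 ± 0.24 (SE; adjusted p = 0.621, 0.574 and 0.606, limma), and Alox5ap one of -0.22 ± 0.19 (adjusted p = 0.611). Their 95% intervals all included 0. The intervals ran from -0.41 to 1.14 for Trpm5, from -0.26 to 0.88 for Matk, from -0.30 to 0.85 for Dclk1 and from -0.68 to 0.24 for Alox5ap. The log2 fold change was 0.22 for Pou2f3, 0.072 for Il25 and 0.0585 for Gfi1b. Exact two-sided permutation tests gave p between 0.3 and 0.8 for the 9 genes, with 0.1 the smallest p that 3 against 3 libraries allows. The median log2 fold change of the 6 tested genes was 0.335, against -0.024 over all genes tested.

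The positive differences shrank without wild-type replicate 3. In that fit, the median of the 6 was 0.031 and Trpm5 stood at -0.016 ± 0.16, Dclk1 at 0.018 ± 0.15, Matk at 0.044 ± 0.14, Gnat3 at 0.12 ± 0.13 and Avil at 0.24 ± 0.19 (SE; adjusted p = 0.996, 0.996, 0.985, 0.915 and 0.854, limma). Alox5ap stood at -0.39 ± 0.17 (adjusted p = 0.823, unadjusted p = 0.0543), while without wild-type replicate 1, its highest library, it stood at -0.0175 (adjusted p = 0.969). With a HOX position score as a covariate, the mean log2 level of 3 proximal minus that of 5 distal HOX genes, Trpm5 (-0.21), Matk (-0.15) and Dclk1 (-0.13) had the opposite sign, none of them passing. Without wild-type replicate 2, where 16.4% of 11344 genes passed, 0 of the 6 did (adjusted p = 0.19 to 0.488).

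**Figure D2:**
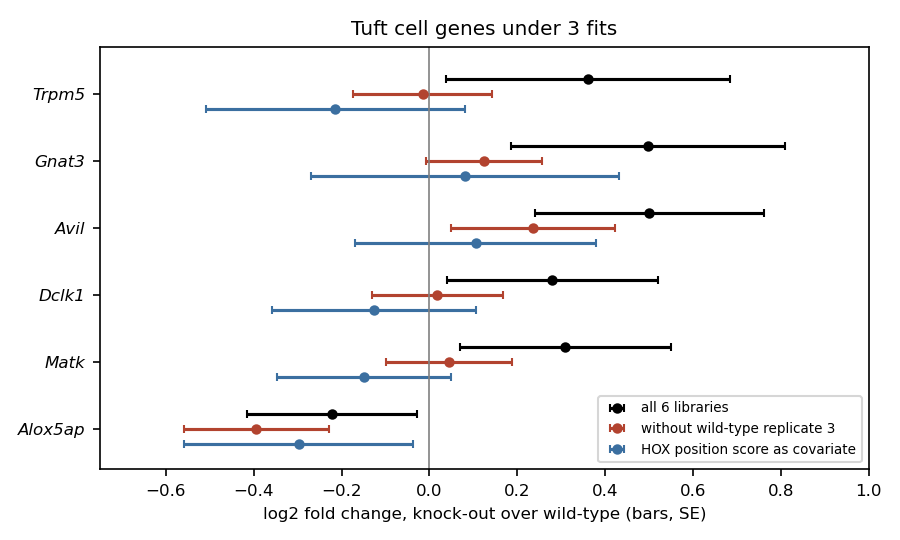
Log2 fold change on the log2(FPKM + 1) scale, knock-out over wild-type, with SE bars, for the 6 tuft cell genes with a mean of at least 1 FPKM, from all 6 libraries (black), without wild-type replicate 3 (red) and with the HOX position score as a covariate (blue). The red points of Trpm5, Dclk1 and Matk lie at or near 0, at -0.016, 0.018 and 0.044.

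A low value in wild-type replicate 3 was not particular to tuft cell genes. This library was the lowest of the 6 in 6 of the 6 tested tuft genes, against 26.0% of all genes tested, and it lay under 50% of the median of the other 5 in 5 of the 6 tested tuft genes, against 7.11% of all genes tested. These counts were chosen after the values were seen and carry no test. Wild-type replicate 1, which shared the high Hoxb13, was not low: its 9 tuft genes summed to 20.12 FPKM, within the 16.24 to 21.42 FPKM of the knock-outs. Alox5ap gave 5.71 FPKM of that sum. The 2 libraries were not equally distal by HOX genes: Hoxd13 was at 0.96 FPKM in wild-type replicate 1 and 68.45 FPKM in wild-type replicate 3. Position and other traits of wild-type replicate 3 cannot be told apart here. Wild-type replicate 2 summed to 18.29 and wild-type replicate 3 to 8.25 FPKM.

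Some marker lists of other cell types were also lowest in wild-type replicate 3. The 7 T cell markers found in the table summed to 24.44, 15.18 and 20.44 FPKM in knock-out colon, against 12.39, 17.82 and 6.32 FPKM in wild-type colon, and wild-type replicate 3 was lowest in 5 of the 7. The 10 enteric neuron markers summed to 41.09, 27.42 and 32.65 FPKM in knock-out colon, against 25.78, 38.16 and 19.28 FPKM in wild-type colon, with wild-type replicate 3 lowest in 10 of 10. Dclk1 is also expressed in neurons, and the part of neurons in its values was not tested. The T cell and neuron sums were next lowest in wild-type replicate 1, at 12.39 and 25.78 FPKM. Other lists were also low in both wild-type replicate 1 and wild-type replicate 3. The 10 epithelial markers summed to 14580 FPKM in wild-type replicate 3, 68.5% of the median of the others, and to 14310 FPKM in wild-type replicate 1, with Car1, a carbonic anhydrase gene, at 1584.11 and 945.29 FPKM in these libraries and at least 4496.48 FPKM in the others. Epcam, given above, was at 917.25 FPKM in wild-type replicate 3 and between 983.62 and 1060.72 FPKM elsewhere. Smooth muscle markers summed to 405.5 FPKM in wild-type replicate 3 (69.8% of the median of the others) and 356.9 FPKM in wild-type replicate 1. Mast cell markers summed to 7.86 FPKM in wild-type replicate 3 (77.4%), above knock-out replicate 2 (6.83) and wild-type replicate 1 (7.75). Kit made up most of this sum, with 4.77 FPKM in wild-type replicate 3. Of the 9 mast cell markers, wild-type replicate 3 was lowest in 1, Kit, and highest in 2, Mcpt1 (1.28 FPKM) and Cma1 (1.00 FPKM). Enteroendocrine markers, from another rare secretory cell type of the gut, summed to 271.5, 180.9 and 265.5 FPKM in knock-out colon, against 394.5, 274.3 and 331.7 FPKM in wild-type colon. That sum hides a split: wild-type replicate 3 was lowest in 4 of the 10, among them Sct (6.02 FPKM, 13.9% of the median of the others) and Chga (60.3%), while the hormone genes Insl5 (550%) and Pyy (195%) were high there. Goblet cell markers were split too. Their sum was highest in wild-type replicate 3, at 155%, and Zg16, Tff3, Clca1 and Fcgbp were at 168% to 321%, but Muc2 was at 40.3% and Spdef at 30.6%, with wild-type replicate 3 highest in 4 and lowest in 3 of the 8. On the same measure fibroblast markers were at 111% and erythroid markers at 132%. The part of these cell types in the tuft gene values was not tested.

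Several markers of the blood cells that share genes with tuft cells were scarce, and others were not. Pf4 had 1.48 to 7.22 FPKM, Kit 4.77 to 10.07 FPKM, Cxcr2 2.40 to 3.11 FPKM and Hbb-bs 1.94 to 6.62 FPKM. Among the megakaryocyte and platelet markers, which bear on Gfi1b and Matk, 4 of the 7 in the table were listed at 0 in at least 1 library, Ppbp reached at most 0.05 FPKM, and the summed level was 2.52 to 3.13 FPKM in knock-out and 2.28 to 8.77 FPKM in wild-type libraries, highest in wild-type replicate 3, where Gfi1b was lowest. Gata1, an erythroid and mast cell factor, was listed at 0 in 5 libraries and at 0.03 FPKM in wild-type replicate 1. Of the mast cell markers, 5 of 9 were listed at 0 in at least 1 library and Cpa3 reached at most 0.11 FPKM. The neutrophil markers S100a8 and S100a9 reached at most 0.15 FPKM, although Ly6g reached 268.34 FPKM in wild-type replicate 3.

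**Figure D3:**
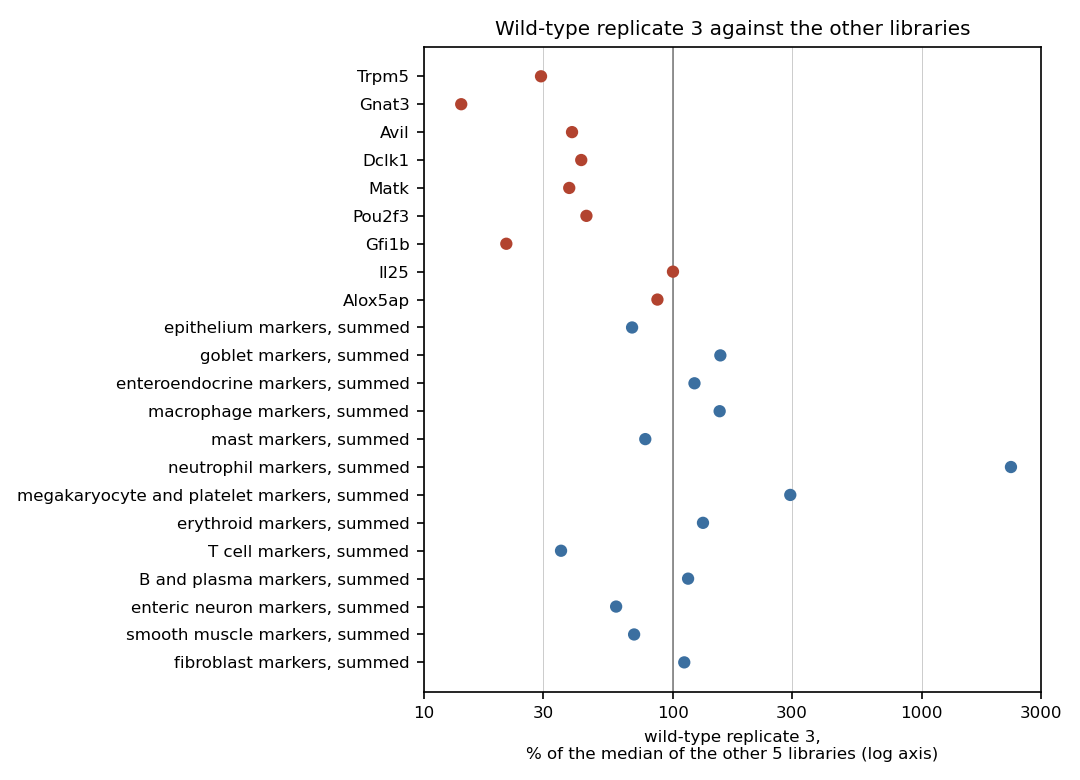
Wild-type replicate 3 as a percentage of the median of the other 5 libraries on a log axis, for each tuft cell gene (red) and for the summed FPKM of each marker list (blue). From 14.1% to 44.9% lie 7 tuft genes, with the T cell markers at 35.5% in the same range. Il25, Alox5ap and most other lists lie nearer to or above 100%, and the neutrophil point far to the right is set by Ly6g.

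Most tested genes of the rest of the taste-type cascade were also lowest in wild-type replicate 3. Unlike the tuft genes, Trpm4 and Rgs2 were low in wild-type replicate 1 as well. All 7 tested genes of that list had positive log2 fold changes (median 0.36), against 44.6% of all genes tested. The median was 0.14 without wild-type replicate 3 and -0.055 with the HOX position score. In limma 0 passed and 1 had an unadjusted p under 0.05, against 12.5% of all genes tested. Both shares of all genes also stand beside the counts of the lists below. The gene under that unadjusted p was Trpm4, the closest relative of Trpm5. It had 75.45, 75.62 and 78.83 FPKM in knock-out colon, against 49.79, 72.52 and 39.19 FPKM in wild-type colon (log2 fold change 0.55 ± 0.21, adjusted p = 0.396, limma). Its groups did not overlap, with wild-type replicate 2 just below the knock-outs, and neither did those of Itpr2. These were 2 of the 14 genes of the list, against 16.9% of all genes tested. Itpr2, an inositol trisphosphate receptor, had 4.67, 5.36 and 5.18 FPKM in knock-out colon, against 3.70, 4.61 and 1.95 FPKM in wild-type colon (0.51, adjusted p = 0.404). Rgs2, a regulator of G protein signalling, had a log2 fold change of 0.90 (adjusted p = 0.408) and Ffar3, a short-chain fatty acid receptor, one of 0.36 (adjusted p = 0.547). Without wild-type replicate 3 Trpm4 stood at 0.34, Itpr2 at 0.24, Rgs2 at 0.63 and Ffar3 at 0.069. With the HOX position score they stood at 0.085, 0.073, -0.074 and -0.055, in the same order. Without wild-type replicate 2, Trpm4 (0.78, adjusted p = 0.00793) and Rgs2 (1.41, adjusted p = 0.0089) passed the limma test, in a fit where 16.4% of all genes passed. Some receptor and G protein genes of the cascade had low levels: Tas1r3 stood between 0.18 and 0.60 FPKM, Gnb3 at most at 0.09 FPKM and Gng13 at most at 0.40 FPKM. The G protein subunit gene Gnb1 stood between 145.61 and 165.30 FPKM. Wild-type replicate 3 was lowest in 6 of the 7 tested genes of the list and in 9 of all 14, and highest in 2, Tas1r3 and Itpr3.

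Eicosanoid genes were split. Of 6 tested, 3 had positive and 3 negative log2 fold changes (median 0.0575, and -0.029 without wild-type replicate 3), with 0 passing the limma test and 0 at an unadjusted p under 0.05. Alox5, 5-lipoxygenase, the partner of Alox5ap, had 1.54, 1.73 and 1.73 FPKM in knock-out colon, against 1.56, 1.56 and 0.78 FPKM in wild-type colon. Unlike Alox5ap it was not highest in wild-type replicate 1. Like Alox5ap it had its lowest value in wild-type replicate 3. Ltc4s, leukotriene C4 synthase, had 3.03, 2.69 and 3.38 FPKM in knock-out colon, against 3.96, 2.34 and 1.56 FPKM in wild-type colon. Hpgds, the haematopoietic prostaglandin D synthase, went the other way, with 2.13, 1.43 and 2.07 FPKM in knock-out colon, against 3.10, 1.80 and 3.83 FPKM in wild-type colon (log2 fold change -0.42, adjusted p = 0.439). Pla2g4a, the phospholipase that releases arachidonic acid, had a log2 fold change of -0.35 (adjusted p = 0.400) and was also highest in wild-type replicate 3. Without that library Hpgds stood at -0.25 and Pla2g4a at -0.22. Without wild-type replicate 2 Hpgds passed the limma test (-0.64, adjusted p = 0.0428), in a fit where 16.4% of all genes passed. With the HOX position score Hpgds stood at -0.028 and Pla2g4a at -0.13.

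Among genes of tuft transcription and lineage, 2 of 7 tested had positive log2 fold changes (median -0.059, and -0.18 without wild-type replicate 3) and 0 passed in limma. Ascl2 and Sox9, transcription factors of crypt base cells, had an unadjusted p under 0.05 and negative log2 fold changes (-0.72 ± 0.23 and -0.65 ± 0.27, adjusted p = 0.396 for each). Ascl2 had 0.61, 0.45 and 1.58 FPKM in knock-out colon, against 1.82, 1.87 and 2.35 FPKM in wild-type colon, without overlap. Nrep had 14.26, 10.90 and 15.17 FPKM in knock-out colon, against 5.85, 13.18 and 1.46 FPKM in wild-type colon (1.21, adjusted p = 0.410). Its log2 fold change was 0.54 without wild-type replicate 3 and -0.11 with the HOX position score. It was 1.80 without wild-type replicate 2, where it passed the limma test (adjusted p = 0.0288), as did 16.4% of all genes. Spib, a transcription factor of tuft, M and B cells, was highest in wild-type replicate 1, as Alox5ap was (-0.31, adjusted p = 0.574). The coactivator gene of POU2F3, listed as 1810046K07Rik, lay below the minimum, with 0.96, 0.55 and 0.79 FPKM in knock-out colon, against 1.33, 0.92 and 0.45 FPKM in wild-type colon, with wild-type replicate 3 lowest.

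A list of 31 other tuft marker symbols, which shares members with the lists above, had 28 in the table and 21 tested. Of these, 13 had positive and 8 negative log2 fold changes (median 0.17, and -0.086 without wild-type replicate 3), and 0 passed in limma. Wild-type replicate 3 was lowest in 13 of the 21. Sh2d7 (3.63, 3.22 and 3.50 FPKM in knock-out, 3.81, 3.98 and 1.13 FPKM in wild-type) and Rgs13 (4.85, 3.75 and 4.50 FPKM in knock-out, 5.53, 3.93 and 1.56 FPKM in wild-type) had the shape of the main group, names chosen after their values were seen. Lrmp was the strongest exception and the only tested gene of the list with an unadjusted p under 0.05. It had 3.03, 2.38 and 3.57 FPKM in knock-out colon, against 7.56, 3.35 and 15.32 FPKM in wild-type colon, so that it was highest where the tuft genes were lowest (log2 fold change -1.10 ± 0.45, adjusted p = 0.396, limma). Lrmp is also a lymphocyte gene. B and plasma cell markers summed to 181.7, 124.3 and 180.8 FPKM in knock-out colon, against 313.2, 170.2 and 208.7 FPKM in wild-type colon. Unlike Lrmp, that sum was highest in wild-type replicate 1, and the T cell sum given above was lowest in wild-type replicate 3. The part of lymphocytes in the Lrmp values was not tested. Cd300lf (0.57, adjusted p = 0.396), Skap2 (-0.28, adjusted p = 0.413) and Hpgds, described above, were the others with the lowest unadjusted p. Without wild-type replicate 3, Lrmp stood at -0.62, Cd300lf at 0.35 and Skap2 at -0.18. Without wild-type replicate 2, Lrmp (-1.58, adjusted p = 0.0138) and Skap2 (-0.41, adjusted p = 0.0433) passed the limma test, as did 16.4% of all genes. With the HOX position score Lrmp stood at -0.13, Cd300lf at 0.10 and Skap2 at -0.0081.

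**Figure D4:**
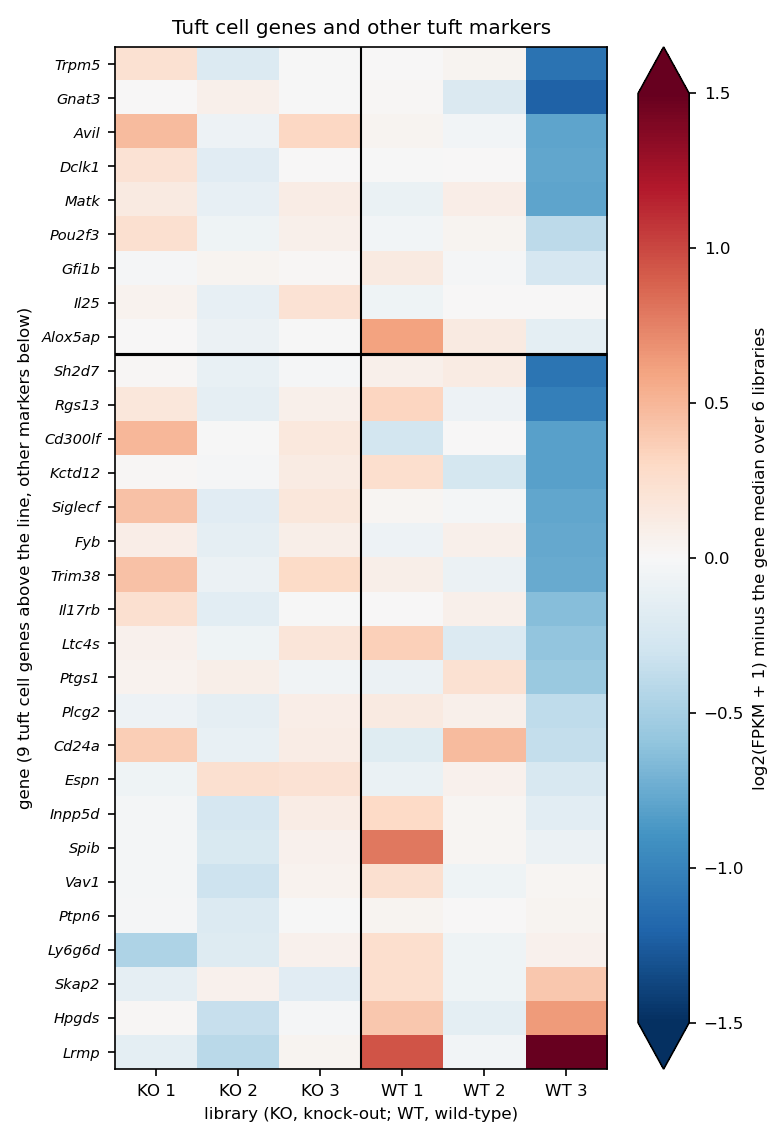
Log2(FPKM + 1) minus the median over the 6 libraries of each gene, for the 9 tuft cell genes (above the line) and the 21 tested genes of the other tuft marker list (below, sorted by wild-type replicate 3). The last column is blue for most genes, from Trpm5 and Gnat3 to Sh2d7 and Rgs13, and red for Skap2, Hpgds and Lrmp.

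The circuit on which tuft cells act was measured in part, since 3 of 19 symbols (Il4, Il9 and Il13) had no row used here and 9 of the 16 present were tested. Of the 9, 4 had positive and 5 negative log2 fold changes (median -0.051), with 0 passing the limma test and 0 at an unadjusted p under 0.05. The receptor genes Il4ra (0.60, adjusted p = 0.398) and Il17rb (0.21, adjusted p = 0.672) were both lowest in wild-type replicate 3, Il17rb, the IL-25 receptor, at 0.52 FPKM against 1.12 to 1.80 FPKM in the other libraries. Il4ra was low in both libraries with the distal HOX pattern, at 9.46, 8.86 and 9.23 FPKM in knock-out colon, against 5.58, 9.07 and 3.55 FPKM in wild-type colon. Retnlb, a goblet cell product induced by type 2 cytokines, was low in the same libraries. It had 100.09, 125.91 and 66.49 FPKM in knock-out colon, against 3.35, 123.76 and 0.47 FPKM in wild-type colon (3.36 ± 1.52, adjusted p = 0.399, limma). The transcription factor gene Stat6 had a log2 fold change of 0.27 (adjusted p = 0.398). Without wild-type replicate 3, Retnlb stood at 2.03, Il4ra at 0.32, Stat6 at 0.15 and Il17rb at -0.011. Without wild-type replicate 2, Retnlb (5.24, adjusted p = 0.00213), Il4ra (0.90, adjusted p = 0.0158) and Stat6 (0.37, adjusted p = 0.0457) passed the limma test, as did 16.4% of all genes. With the HOX position score Retnlb stood at -0.14, Il4ra at -0.0048 and Stat6 at 0.041.

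Acetylcholine is another tuft cell product. Chat, its synthetic enzyme gene, had 0.48, 0.26 and 0.37 FPKM in knock-out colon, against 0.31, 0.39 and 0.21 FPKM in wild-type colon, below the minimum for testing, with wild-type replicate 3 lowest. Chat is also made by enteric neurons, whose markers are given above. Of the 8 genes of acetylcholine signalling, 3 were tested, all with positive log2 fold changes (median 0.10), and 0 passed in limma. Bche, a cholinesterase gene, had groups that did not overlap and an unadjusted p of 0.0205 (0.58 ± 0.19, adjusted p = 0.396, limma). Without wild-type replicate 2 it passed the limma test (0.75, adjusted p = 0.0244), as did 16.4% of all genes, and with the HOX position score it stood at 0.18. Ache and Chrm1 each stood at 0.10 (adjusted p = 0.817 and 0.850), and at 0.051 and 0.020 without wild-type replicate 3.

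The genes whose profiles were most like the tuft genes were ranked by the root mean square difference, over the 6 libraries, between centred log2(FPKM + 1) values. Against the mean profile of the 6 tested tuft genes, the nearest of 11360 other genes was Fyb (0.0789), an adaptor protein gene, followed by Ffar3 (0.0791), Esco2 (0.0919), Il17rb (0.0947) and Trim59 (0.0983). The mean profile itself deviated by 0.331 on this measure. Fyb, Il17rb and Ffar3 were on the lists chosen for tuft cells, and Esco2, a cohesin acetyltransferase gene, and Trim59 were not. The single nearest genes were Fyb for Matk (0.0262), Trim38 for Avil (0.0386), Il17rb for Dclk1 (0.0524), Fam221a for Alox5ap (0.0742), the T cell gene Cd3d for Trpm5 (0.0892) and the inflammatory caspase gene Casp4 for Gnat3 (0.116). All of these genes had their lowest value in wild-type replicate 3. The ranking rests on 6 libraries and carries no test.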

How the data were processed

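The RNA-seq libraries used were from mouse colon, 3 libraries labelled Zfp280c knock-out and 3 labelled wild-type. RKO cell libraries were not used here. Oligo(dT) beads and random primers were used, per the labels. The authors deposited FPKM per gene to 2 decimals, per the file headers, with Entrez IDs and RefSeq accessions. HTSeq, HISAT, Bowtie2 and edgeR are listed, without roles, per the submitters' processing notes; the mouse build is not given in the sources used here, so no positions or sequences are printed. FPKM summed to 491900.5 to 507206.3 per library. Low values gave no clear step per read, so depth is unknown and no counting interval is given.

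Values were analysed as log2(FPKM + 1), which understates changes of low genes. Genes with a mean of at least 1 FPKM (11366) entered a limma fit (limma 3.58.1, R 4.3.3; two-sided, trend in the variance, Benjamini-Hochberg over all genes tested), and the 9 tuft genes were also compared by exact permutation (scipy 1.17.1). Nothing says whether libraries came from separate animals, so p-values measure the spread between these libraries. The fit was tested on simulated data with independent noise and 200 changed genes. It recovered 0% of them at a log2 change of 0.5, 70.4% at 1 and 91.8% at 2. In the libraries themselves Zfp280c, the deleted gene, did not pass (log2 fold change -1.675, adjusted p = 0.123, limma). Variation shared between genes was not simulated, so the recovered shares may be too high for the real libraries. A tuft gene that did not pass was therefore not shown to be unchanged. Alternatives were pseudocounts of 0.1 and 0.5, minimum means of 0.1 and 5 or none, median centring, quantile normalization, a robust prior, the replicate number as a block, the removal of each library, and a HOX position score (mean log2 of 3 proximal minus 5 distal HOX genes). One gene of the other tuft marker list is not reported here. The tuft genes, lists and markers were chosen with earlier results of these data known. Named genes were the 9, Zfp280c, HOX genes, up to 4 genes per pathway list by unadjusted p, and the nearest profiles; other names were added for their values.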

Additional observations from a re-analysis of the deposited data

How the results depend on the processing

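No tuft gene passed in limma under any of the alternatives in which it was tested. Over all genes, the limma fit to all 6 libraries called 0 (1420 had an unadjusted p under 0.05), and leaving out 1 library at a time gave 0 to 1861. The count of 1861 came without wild-type replicate 2, the only wild-type library without the distal HOX pattern; the 6 tuft genes tested gave 0 in each of these fits. With the lower or no minimum, the robust prior or the replicate block, log2 fold changes stayed identical, so their sign could not change. Of 96 values of single tuft genes, these included, 92 kept their sign. The 4 that did not were Trpm5 without wild-type replicate 3 (-0.016, in a range of -0.016 to 0.56 over the fits that left out 1 library) and, with the HOX position score as a covariate, Trpm5 (-0.21), Matk (-0.15) and Dclk1 (-0.13). Since the score was low only in wild-type replicates 1 and 3 (-2.43 and -4.42), that fit rests largely on wild-type replicate 2. Avil ranged from 0.105 to 0.71 and Gnat3 from 0.0804 to 0.95, both highest with 0.1 added in place of 1. Pou2f3, Il25 and Gfi1b were tested only with the lower minimum or none (adjusted p = 0.534 to 0.823); without wild-type replicate 3 their differences were 0.084, 0.082 and -0.046, with no test. The minimum of 5 FPKM left 0 tuft genes to test, so it bears on the count alone.

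With the replicate number as a block, limma called 0 genes (1242 had an unadjusted p under 0.05), 0 of them tuft genes. Same-numbered libraries did not deviate together: the correlations of their deviations from the group means, across genes, were -0.453, -0.137 and 0.151 for numbers 1, 2 and 3, and 1 of 3 knock-outs correlated best with its own number. The numbers were therefore not treated as pairs.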
